A study of Mus musculus with 2 samples.

Results

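The immunoglobulin variable (V) gene segments are the 218 records of type IG_V_gene in GENCODE M21 on the assembled mouse chromosomes, of 55413 gene records there in all. They comprise 113 segments of the heavy chain locus Igh on chromosome 12, 102 of the kappa light chain locus Igk on chromosome 6 and 3 of the lambda light chain locus Igl on chromosome 16. The members were taken by record type alone, with no measured value. Binding of CTCF was read near them in newborn heart, a tissue outside the B lineage.

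Binding was measured by ChIP-seq, the sequencing of DNA precipitated with an antibody to CTCF, in heart of B6NCrl mice at postnatal day 0. The 2 libraries form 1 group and carry no treatment or engineered allele in the labels. The labels number them as biological replicates 1 and 2, yet assign them to the same tissue sample and the same donor. The spread between replicate 1 and replicate 2 may therefore be technical. Of the deposited peak lists, the optimal list, derived by the authors with IDR (irreproducible discovery rate), held 44533 peaks, 44518 of them on assembled chromosomes. A peak of this list need not be among the strongest of both libraries: of its 29 summits in the 3 locus intervals, 25 were. Peak lists hold no marker of a cell type, so the tissue label could not be checked, and they do not give read depth, so the counting error of a signal is unknown.

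A V segment encodes most of the variable domain of an antibody chain. In developing B cells the RAG recombinase joins a V segment to a J segment, or, at Igh, to a D segment already joined to J, by cutting at a recombination signal that starts directly at the segment's 3′ end with a heptamer and is completed by a spacer and a nonamer. CTCF and cohesin fold the arrays so that segments far from J come near it, and CTCF recognises a DNA motif with a direction: loops in mammalian chromosomes mostly form between motifs that point at each other. In work on mouse B cells, CTCF sites between V and D at Igh, between V and J at Igk, and beyond the Igh constant genes are known to shape which V segments are used.

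The sequences below carry the main observation at Igh. Each is the stretch from the first base past the V segment's 3′ end to 10 bases past the nearest CTCF core, on the segment's own strand, which at Igh is the minus strand and points toward D and J (GRCm38, RefSeq assembly). Capitals mark the 14-base CTCF core and, where present at the first base, the recombination heptamer CACAGTG. The first 3 segments had a CTCF peak on that core in heart, and the other 3 had none in the optimal list. They lie at chr12:113611100-113611186, chr12:113859067-113859148, chr12:113981795-113981878, chr12:113716586-113716669, chr12:113578422-113578503 and chr12:113736032-113736110, in the order shown.
Ighv2-3: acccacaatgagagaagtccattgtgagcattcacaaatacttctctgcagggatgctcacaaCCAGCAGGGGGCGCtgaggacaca
Ighv5-17: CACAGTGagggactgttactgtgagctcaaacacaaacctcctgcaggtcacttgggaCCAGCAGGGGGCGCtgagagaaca
Ighv11-1: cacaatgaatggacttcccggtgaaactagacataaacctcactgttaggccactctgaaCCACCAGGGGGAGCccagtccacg
Ighv2-6: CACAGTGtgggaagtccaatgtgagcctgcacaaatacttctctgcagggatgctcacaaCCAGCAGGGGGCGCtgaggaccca
Ighv5-2: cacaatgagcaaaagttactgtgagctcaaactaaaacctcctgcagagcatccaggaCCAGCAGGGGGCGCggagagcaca
Ighv5-9-1: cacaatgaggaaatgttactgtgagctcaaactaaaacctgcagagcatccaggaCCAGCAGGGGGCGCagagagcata
Of these, 5 share the same 14-base core and differ in whether a peak was called.

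Few V segments had a CTCF peak nearby. An optimal summit lay within 10 kb of the 5′ end of 10 of 218 segments (4.59%), against 38.0% of all genes, 50.3% of protein-coding genes and 27.8% of the 144 V segments of the T cell receptor loci, which are built in the same way. Taken from each library's own strongest peaks, as many as the optimal list holds, the share was 4.59% in replicate 1 and 5.50% in replicate 2 (5.05 ± 0.649%, SD, n = 2), against 38.0% and 38.2% of all genes. The V segments thus stood far below all genes in each library. Counted from the 3′ end, 10 of 218 segments had a summit within 10 kb, against 36.3% of all genes. A wider window did not close the difference: the share was 2.29% within 5 kb, 8.72% within 20 kb and 21.1% within 50 kb of the 5′ end, against 26.6%, 52.7% and 71.0% of all genes. The median distance from a V segment's 5′ end to the nearest optimal summit was 153.9 kb, against 17.71 kb for all genes, 9.85 kb for protein-coding genes and 24.79 kb for T cell receptor V segments. No test was made on these shares, since the libraries form a single group and segments of an array are neighbours that share summits: the 10 segments rest on 9 summits.

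**Figure D1:**
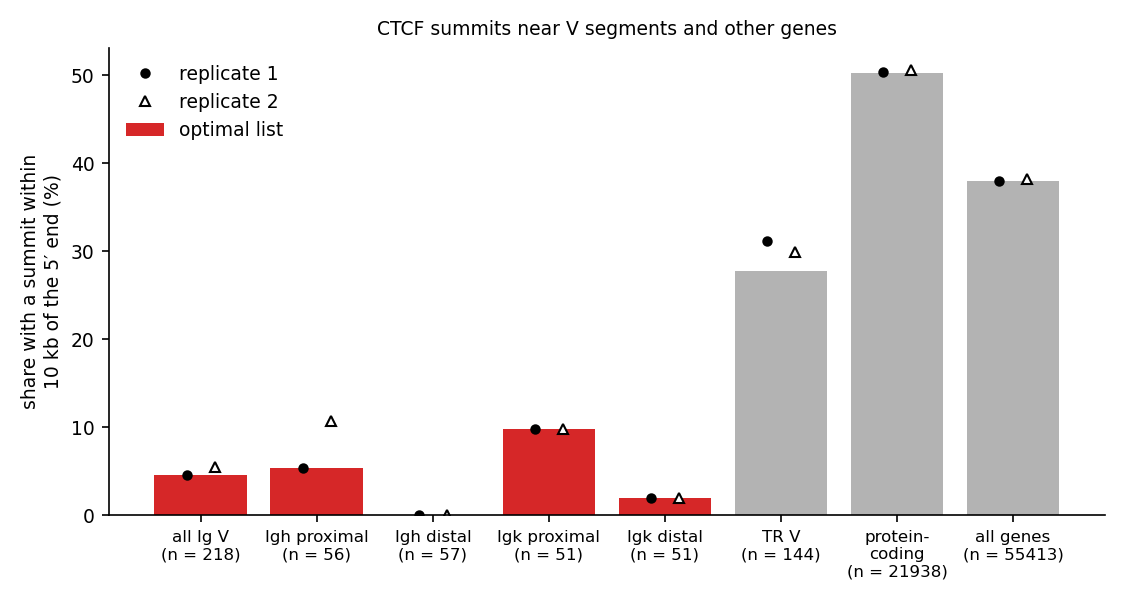
Share (%) of genes with a CTCF summit within 10 kb of the 5′ end, for the Ig V segments (red bars) and, to their right, for T cell receptor V segments, protein-coding genes and all genes (grey bars). Bars are the optimal list, and points are the strongest peaks of each replicate. All Ig V segments together reach 4.59%, the distal Igh segments 0, and all genes 38.0%.

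The loci were then split at the median rank of distance from the nearest J segment, into proximal and distal segments. At Igh, the proximal segments begin 149.2 kb from J and the distal ones end 2570.6 kb from it. At Igk the range runs from 19.0 to 3167.1 kb. A peak within 10 kb was found for 3 of 56 proximal Igh segments (5.36%) and 0 of 57 distal ones, and for 5 of 51 proximal Igk segments (9.80%) and 1 of 51 distal ones (1.96%). The order was the same in each library: 5.36% and 10.7% of proximal against 0 and 0% of distal Igh segments, and 9.80% against 1.96% of Igk segments in both replicates. At Igh, replicate 2 alone thus had 6 segments with a peak, all proximal, against 3 in replicate 1. Median distances to a summit ran the same way, 109.3 kb for proximal and 684.4 kb for distal Igh segments, and 83.7 kb for proximal and 142.0 kb for distal Igk segments. For the proximal Igh segments this distance rested on the library, at 109.3 kb in replicate 1 and 52.4 kb in replicate 2. Igh and Igk as a whole had 2.65% and 5.88% of segments with a peak in the optimal list, 2.65% and 5.88% in replicate 1, and 5.31% and 5.88% in replicate 2, so in replicate 2 the loci were nearly level.

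The 3 Igh segments with a peak were alike in position: each summit lay just past the segment's 3′ end, on the core shown above. At Ighv2-3 the summit lay 73 bp past the 3′ end, with a pooled signal of 46.6, and the libraries gave 29.57 and 16.83 (23.20 ± 9.01, SD, n = 2). At Ighv5-17 it lay 67 bp past the 3′ end, with a signal of 29.8, 19.08 in replicate 1 and 8.76 in replicate 2 (13.92 ± 7.30). At Ighv11-1 it lay 73 bp past it, with a signal of 52.5, 26.59 in replicate 1 and 26.60 in replicate 2 (26.60 ± 0.01). All 3 were below the median of the optimal list, 60.8, and all 3 were also in the conservative IDR list. Signals are the authors' values, set side by side without scaling between libraries. The segments lie at chr12:113611187-113611617, chr12:113859149-113859670 and chr12:113981879-113982341, ranked 4, 18 and 25 of 113 from J. The next nearest segments, Ighv14-2 and Ighv5-4, were 13.09 kb and 13.14 kb from a summit and so outside the window.

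That placement was common among proximal Igh segments as sequence, and most of these cores carried no optimal peak. A CTCF core with at most 1 mismatch lay within 100 bp of the 3′ end of 29 of the 113 Igh segments, 28 within the array and that of Ighv5-2 just beyond its border. In each of the 29 it was downstream, on the segment's strand and pointing toward J, with its centre 60 to 83 bp away (median 68 bp). All 29 segments were proximal, from families Ighv2 and Ighv5, with 8 and 9 members, Ighv7 with 3, Ighv10 and Ighv11 with 2 each, and Ighv4, Ighv6, Ighv12, Ighv13 and Ighv16 with 1 each. No distal Igh segment, nor any Igk or Igl segment, had such a core. This rests on the limits set: with at most 2 mismatches within 300 bp of the 3′ end, 32 of 102 Igk segments had a core. Of these, 22 were among the 26 of family Igkv4. By the same limits 38 of 113 Igh segments had one, with 0 of 57 distal, and 0 of 3 Igl segments. The share of all genes with a core by these or the stricter limits was not counted, so these counts have no such reference. Optimal peaks lay on 3 of the 29 cores, against 28.7% of all cores with at most 1 mismatch in the genome. The relaxed pooled list of 300000 peaks, which includes background, had a summit on 10 of the 29, against 36.8% of all such cores. Both comparisons set unlike mixes side by side, since 12 of the 29 cores had no mismatch, against 6945 of 66933 in the genome. Of the 12 without a mismatch, 2 had an optimal summit and 6 a relaxed pooled one, against 75.0% and 81.1% of such cores in the genome. The 7 that were in the relaxed list only had signals of 6.45 to 20.58. These are below the median of the optimal list, 60.8, but above its lowest signal, 5.5. The strongest was Ighv11-2 with 20.58 (6.41 in replicate 1, 12.60 in replicate 2), followed by Ighv5-2 with 13.81 (5.87 and 8.28) and Ighv5-9-1 with 13.56 (5.73 and 8.11). These 3 are the segments that entered by replicate 2's own strongest peaks, whose lowest signal was 7.77, against 8.54 for replicate 1. Ighv2-9-1, Ighv4-1, Ighv2-6-8 and Ighv2-9 ranged from 10.14 to 6.45. The names in this paragraph other than Ighv5-2 were chosen after their values were seen.

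**Figure D2:**
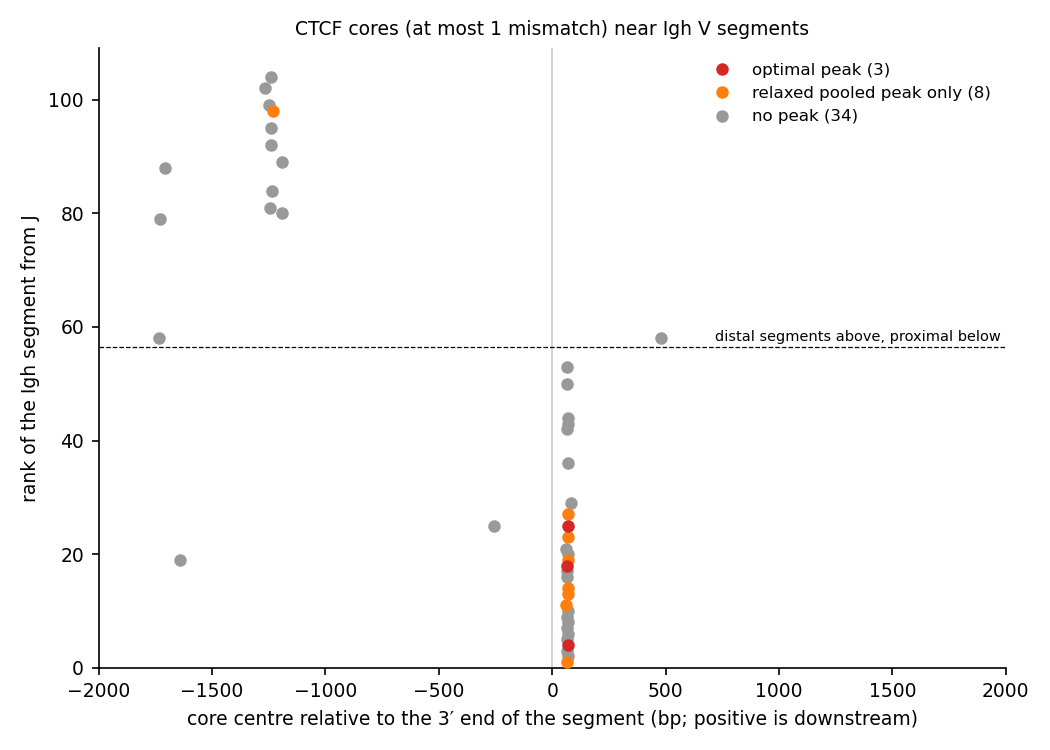
Position of CTCF cores (at most 1 mismatch) within 2 kb of Igh V segments: distance of the core's centre from the segment's 3′ end in bp (x axis, positive is downstream) against the segment's rank from J (y axis). Colour gives optimal peaks (3 cores), relaxed pooled peaks only (8) and no peak (34). Proximal segments line up at 60 to 83 bp downstream, and the largest cluster of distal ones lies 1193 to 1265 bp upstream.

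The same 14 bases were bound at most other places in the genome. The core of Ighv2-3, CCAGCAGGGGGCGC, was found past the 3′ end of 9 Igh segments, 2 of which had an optimal summit within 50 bp of the core's centre (22.2%). Of the 188 other copies of this core on the assembled chromosomes, 169 had one (89.9%). The 9 Igh segments were Ighv2-3 and Ighv5-17, with a peak, Ighv5-2, Ighv5-9-1, Ighv2-6-8 and Ighv2-9, with relaxed peaks only, and Ighv5-6, Ighv5-12 and Ighv2-6, with none in any list. Unique sequence around these cores varied beside this, and it only stands in for read placement, since the read length is unknown. Unique sequence was measured as the share of 32-base runs, within 500 bp of the core, that occur once on the assembled chromosomes. Around Ighv5-6 and Ighv5-12 it was 38.9% and 41.9%, and 5 copies elsewhere with under 50% had no peak either. Among copies with at least 80% unique sequence, 1 of 3 at Igh had an optimal peak (Ighv5-17, with neither Ighv5-2 nor Ighv2-9), against 163 of 175 elsewhere (93.1%).

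Over the whole Igh array, cores were dense and mostly empty. The V array held 44 cores with no mismatch, 18.2 per Mb against 2.52 per Mb on chromosome 12, and all 44 pointed toward J. An optimal summit lay on 2 of them (4.55%), against 75.0% of the 6945 such cores of the genome, and a relaxed pooled summit on 6, against 81.1%. With at most 1 mismatch there were 145 cores, 59.9 per Mb against 23.9 per Mb, 126 of them pointing toward J, and 3 had a summit (2.07%) against 28.7% of 66933. In the Igk array there were 25.4 cores with at most 1 mismatch per Mb, against 23.6 per Mb on chromosome 6, with 42 of 80 pointing toward J, and 2 had a summit (2.50%). Of cores with no mismatch the Igk array held 1, without a summit, which is 0.318 per Mb against 2.38 per Mb. In the Igl array 1 of 7 with at most 1 mismatch had one. Counted without regard to unique sequence, dense and mostly empty cores were not particular to Igh. The T cell receptor V array on chromosome 14 held 107 cores with at most 1 mismatch, 62.2 per Mb, of which 8 had an optimal summit (7.48%). It held 24 with no mismatch, 13.9 per Mb, of which 2 had one (8.33%). Those on chromosomes 6 and 13 held 31.5 and 18.5 per Mb with at most 1 mismatch, of which 6 of 21 and 0 of 3 had a summit. The cores were also split by unique sequence. With at least 80% of it and no mismatch, an optimal summit lay on 1 of 8 cores in the Igh array (12.5%) and 0 of 1 in Igk. It was 3 of 5 in the T cell receptor V arrays together (60.0%) and 85.2% of 5825 in the genome. With at most 1 mismatch it was 1 of 37 in the Igh array (2.70%), 1 of 11 in Igk (9.09%) and 0 of 2 in Igl. The T cell receptor V arrays had 9 of 22 (40.9%) and the genome 37.9% of 47940. Both Igh counts rest on the same summit, that of Ighv5-17. With under 50% unique sequence and no mismatch it was 0 of 19 in the Igh array, 1 of 20 in the T cell receptor V arrays (5.00%) and 1.89% of 740 in the genome. The part of read placement was not tested. These classes were chosen after the counts had been seen.

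**Figure D3:**
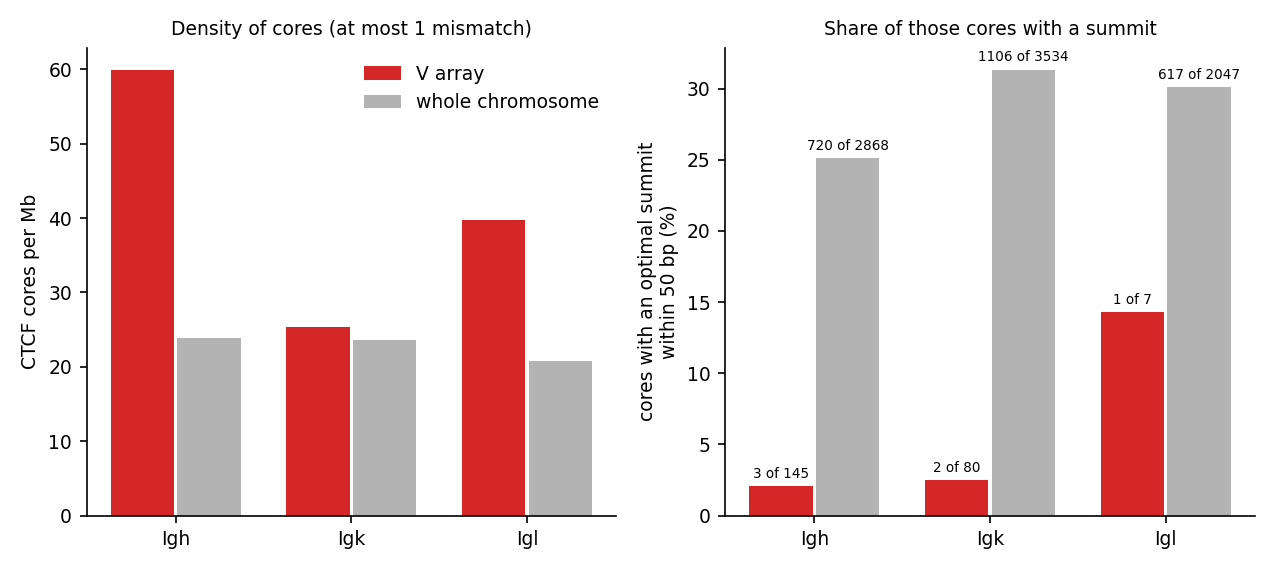
Density of CTCF cores with at most 1 mismatch (left, cores per Mb) and the share of those cores with an optimal summit within 50 bp (right, %), for the V arrays (red) and the whole chromosome that holds each (grey). The Igh array has 59.9 cores per Mb and a summit on 3 of 145, against 23.9 per Mb and 720 of 2868 on chromosome 12.

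Cores also lay near the distal Igh segments, and none was bound in the optimal list. Of 31 cores without a mismatch whose nearest segment was distal, 0 had an optimal summit and 1 had a relaxed pooled one. Only 4 different 14-base words made up these 31 cores, 19 of them reading CCAGCAGGGGGCAC and 9 reading CCAGCAGATGGCAC. Elsewhere in the genome 78.2% of 119 copies of the first and 50.8% of 63 copies of the second had an optimal summit. Most lay upstream of the nearest segment's 3′ end, 15 of the 19 copies of the first word and 8 of the 9 of the second, and none lay within 100 bp of a 3′ end: 10 copies of the first word lay 1193 to 1265 bp upstream of the 3′ end of segments of family Ighv1, and 8 copies of the second lay 3160 to 4021 bp upstream of Ighv1 segments. The other 4 copies of the first word lay 6722 to 32193 bp downstream of a 3′ end, and the other copy of the second lay 2871 bp downstream of that of Ighv1-85. Of 32-base runs, 70.7% were unique in the stretch that holds the proximal segments and 52.1% in that of the distal ones, and 4 of the 31 distal cores had at least 80% unique sequence around them. The following examples give distal cores with 13 bases to each side and capitals for the core (GRCm38, minus strand, cores at chr12:115159642-115159655, chr12:115605164-115605177 and chr12:115865287-115865300).
Ighv1-53: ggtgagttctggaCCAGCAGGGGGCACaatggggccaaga
Ighv1-67: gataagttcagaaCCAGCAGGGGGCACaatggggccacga
Ighv1-77: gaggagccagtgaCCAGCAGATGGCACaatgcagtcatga
Around these cores 10.6%, 90.5% and 37.3% of 32-base runs were unique. They were chosen after their values were seen, to show both words and a wide range of unique sequence.

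Counted over the locus intervals, each from the first to the last segment with 100 kb on either side, 8 optimal summits lay at Igh, 19 at Igk and 2 at Igl. That is 3.05, 5.67 and 5.32 per Mb, against 14.6, 16.8 and 15.1 per Mb on chromosomes 12, 6 and 16. The libraries' own strongest peaks gave 9.5 ± 0.71, 18.5 ± 0.71 and 2.0 ± 1.41 summits (SD, n = 2). Most of the binding stood at the borders. Within the V arrays there were 3 summits at Igh (1.24 per Mb), 8 at Igk (2.54 per Mb) and 1 at Igl, while the J-side 100 kb held 2, 8 and 1 and the far-side 100 kb held 3, 3 and 0. The stretch of 1.39 Mb that holds the distal Igh segments had 0 summits in the optimal and conservative lists and in each replicate's own. The V arrays of the T cell receptor loci had 6.16, 11.0 and 16.5 summits per Mb on chromosomes 13, 14 and 6.

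**Figure D4:**
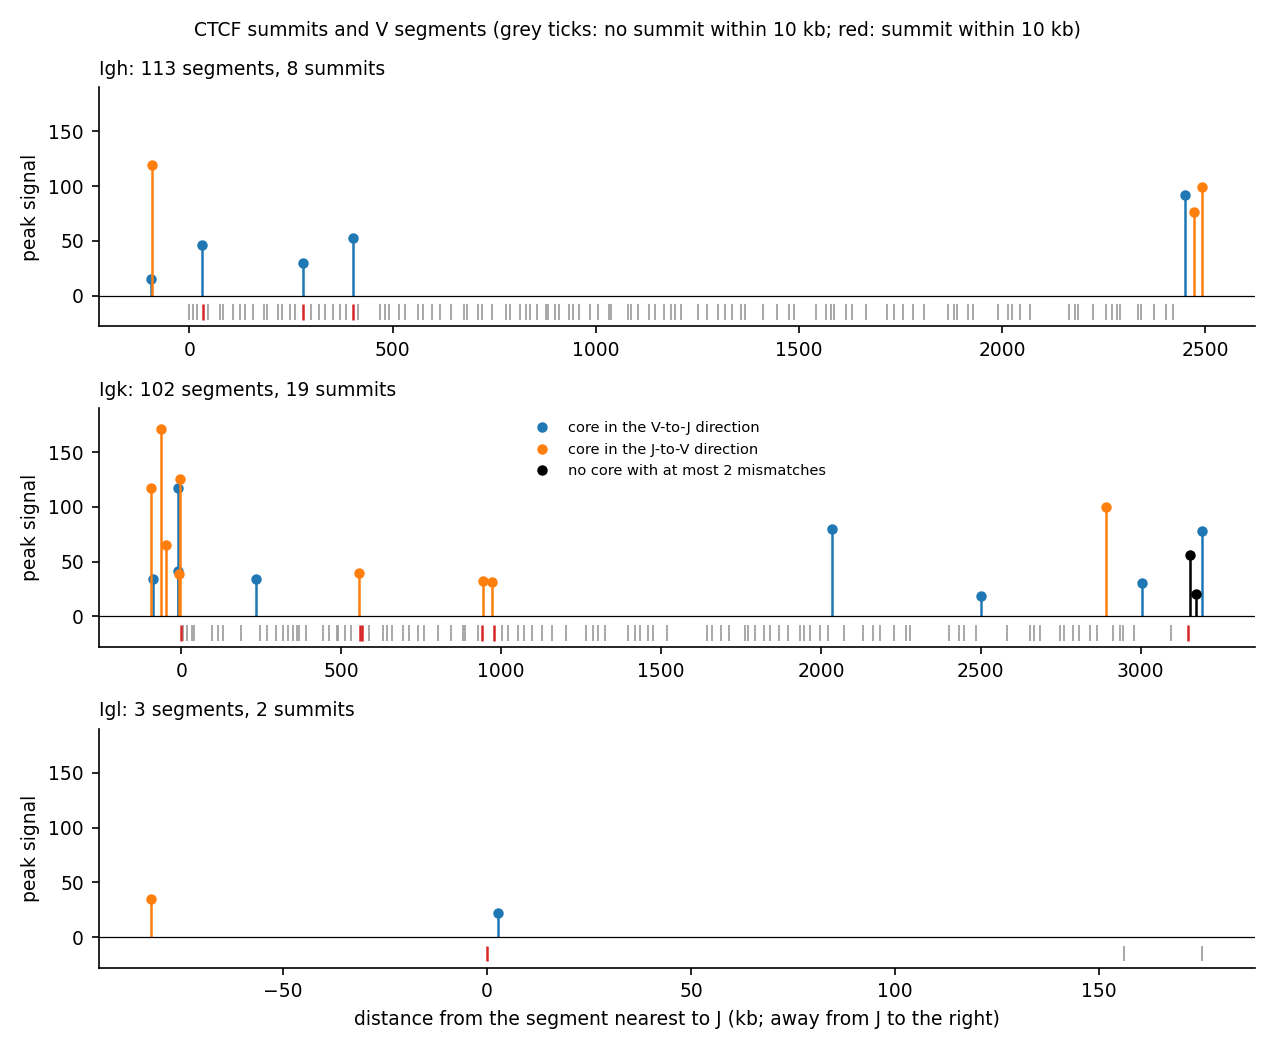
CTCF summits along the 3 loci: distance in kb from the V segment nearest to J (x axis) against pooled peak signal (y axis), coloured by the direction of the core along the strand, V to J or J to V. Ticks below the axis are V segments, red where a summit lies within 10 kb. At Igh the summits stand in the proximal part and at both borders, with no summit over 89 segments in between; at Igk the strongest stand on the J side.

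The summits left long empty stretches. The Igh array had none from the Ighv11-1 site to one 27.83 kb beyond Ighv1-85, the segment farthest from J, over 2046.5 kb that hold 89 segments. This was the 47th longest of 44497 gaps between neighbouring optimal summits, whose median was 20.8 kb, and it holds no unknown bases. At Igk the longest gap was 1064.5 kb with 35 segments, and at Igl 578.4 kb with 2. In the relaxed pooled list the arrays were also sparse, at 20.2, 22.5 and 45.5 peaks per Mb for Igh, Igk and Igl, against 107, 115 and 111 per Mb on their chromosomes. A relaxed summit lay within 10 kb of 83 V segments (38.1%), against 78.4% of all genes. The arrays are rich in repeated sequence: 60.0%, 57.5% and 64.9% of their 32-base runs were unique, against 81.0% in 2724 evenly spaced windows of 10 kb, and 59.0% in the T cell receptor V arrays with their flanks. Within the Ig V segments, the median share of unique sequence within 10 kb was 64.8% for those with a peak and 59.4% for those without. The part of read placement in the low counts was not tested beyond these values.

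At Igk the 6 segments with a peak had it at a distance, not at the 3′ end. Igkv3-1, the segment nearest to J, was 5.90 kb from a strong J-side summit. Igkv8-28 was 3.02 kb and Igkv6-29 was 8.08 kb from a shared summit of signal 39.7 (20.03 and 19.03 in replicates 1 and 2). Igkv12-46 and Igkv5-48 were 6.20 and 5.93 kb from summits of signal 32.4 (22.13 and 10.34) and 31.2 (18.21 and 12.89). Igkv2-137, the segment farthest from J, was 5.75 kb from a summit of signal 55.8 (30.26 and 24.58) beyond the array. Just outside the window were Igkv6-13 at 10.76 kb and Igkv3-2 at 11.03 kb. The strongest summit inside the Igk array, 99.7 (54.88 and 44.65), lay 21.65 kb from Igkv14-130. The Igk segments lie in both orientations, 38 along the direction of J and 64 against it, and 2 of the 38 (5.26%) and 4 of the 64 (6.25%) had a peak within 10 kb.

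The cores below the summits at Igkv12-46 and Igkv5-48 shared their 14 bases, in similar surroundings, while that at Igkv8-28 differed. With 13 bases to each side and capitals for the core (GRCm38, minus strand), they lie at chr6:69758803-69758842, chr6:69733051-69733090 and chr6:70147169-70147208.
Igkv12-46: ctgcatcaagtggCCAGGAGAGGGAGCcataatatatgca
Igkv5-48: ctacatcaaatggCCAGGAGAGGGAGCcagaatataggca
Igkv8-28: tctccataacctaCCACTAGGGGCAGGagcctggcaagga
Each of the 3 had 2 mismatches to the CTCF core consensus and pointed away from J.

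A core with at most 2 mismatches lay within 50 bp of 27 of the 29 summits in the intervals (93.1%), against 73.5% of the 44518 optimal summits on assembled chromosomes. In the V arrays it was 12 of 12. Direction differed between the loci as counted: at Igh all 3 cores in the array pointed toward J, on the strand of the segments, and in the whole interval 5 of 8 did, while at Igk 4 of 8 in the array and 8 of 17 in the interval ran in the V-to-J direction. That direction was counted along the strand, also for the summits that lie beyond the Igk J segments. The counts are small and no test was made.

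The strongest summit of each of the 3 intervals lay on the J side of the array. Between Ighd1-1 and the first V segment, Ighv5-2, a stretch of 96.3 kb, there were 2 summits. That nearer to J, at chr12:113485274, was weak, 15.0 (10.05 and 4.33 in replicates 1 and 2), and was absent from the conservative list. The other, 1632 bp from the 5′ end of Adam6b, had a signal of 119.3 (52.61 and 66.77; 59.69 ± 10.01, SD, n = 2), the highest of the Igh interval. Their cores point away from each other, the weak one toward J and the strong one toward the V array. The cores lie on the minus strand at chr12:113485255-113485294 and on the plus strand at chr12:113487875-113487914 (GRCm38, 13 bases to each side).
Core nearer to J: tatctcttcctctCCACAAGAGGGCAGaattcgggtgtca
Core nearer to V: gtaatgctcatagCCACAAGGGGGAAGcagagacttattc
The core nearer to J has 1 mismatch and that nearer to V has 2.

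At Igk, the 18.4 kb between Igkv3-1 and Igkj1 held 4 summits. Their signals from the V side to the J side were 125.7 (72.46 and 51.54), 38.4 (19.26 and 17.28), 41.4 (25.51 and 16.28) and 116.9 (65.37 and 54.34). The pair nearer to V had cores pointing away from J and the pair nearer to J had cores pointing toward it. A further 4 summits lay beyond Igkj1 within the interval, among them the strongest of all, 171.1 (90.96 and 79.30; 85.13 ± 8.24), in an intron of Rpia, which encodes a pentose phosphate pathway isomerase. Beyond the interval, 8 summits within 6.8 kb lay 31.9 kb past the Igha constant gene at Igh, with signals of 33.2 to 226.3. All 8 best cores there were on the plus strand and pointed toward the V array, 7 with at most 2 mismatches and 1 with 3.

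**Figure D5:**
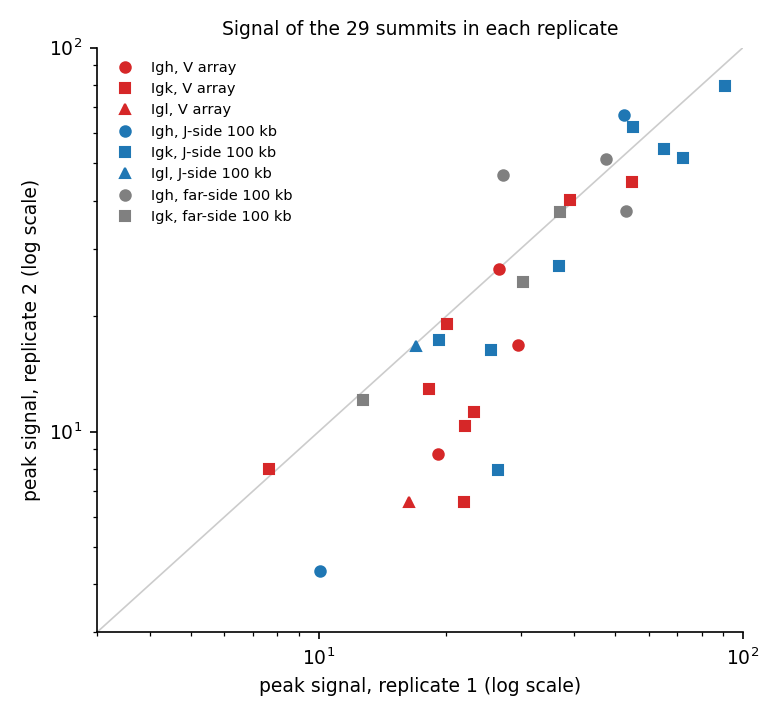
Peak signal of the 29 summits of the locus intervals in replicate 1 (x axis) and replicate 2 (y axis), both on a log scale, with symbols for the locus and colours for the region. The grey line marks equal values. Of the 29 summits, 21 were higher in replicate 1, and the Igh J-side summit at 10.05 and 4.33 is the lowest in replicate 2. Signals are not scaled between libraries, and the share over all optimal summits was not counted.

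The 3 Igl segments differ from the rest in number and layout, since J and constant genes lie between them. Iglv1 was 2.66 kb from a summit of signal 22.1, with 16.32 in replicate 1 and 6.54 in replicate 2 (11.43 ± 6.92, SD, n = 2), and this summit was absent from the conservative list and from the strongest peaks of replicate 2. Iglv3 and Iglv2 were 153.54 and 172.70 kb from that same summit. The other summit of the interval, 34.5 (16.97 and 16.68), was in the conservative list and lay on the J side.

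Features of the segments that the peaks did not choose were as follows. The heptamer CACAGTG, searched on the segment strand within 40 bp of the 3′ end, was present at 168 of 218 segments, 167 of them directly at the end, and at none of the 3 Igl segments. Its share over all genes was not counted. The octamer ATGCAAAT or its complement ATTTGCAT, a promoter element of immunoglobulin genes bound by Oct factors, lay in the 250 bp upstream of 166 V segments (76.1%), against 1.96% of all genes. Of the 10 segments with a peak, 7 had the heptamer and 6 the octamer. No match says only that these letters are not in the window.

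Among other segments of the loci, a summit lay within 10 kb of 2 of 19 D segments, 5 of 14 J segments, 0 of 13 constant genes and 4 of 155 V pseudogenes. The share of all genes was 38.0%. Segments of a locus are neighbours that can share summits, so these are not counts of separate sites. Of 20 listed genes of B cell V(D)J recombination, 12 had a summit within 10 kb, against 50.3% of protein-coding genes. Cd79a, which encodes a signalling chain of the B cell receptor, had the strongest (250.8), followed by Ebf1, a B lineage transcription factor (221.0), and the surrogate light chain gene Vpreb2 (142.7). Rag1, a subunit of the recombinase, had one of 110.9 at 3.55 kb. Among those with none were Rag2, the other subunit, Pax5, a transcription factor needed for the joining of distal Igh segments, and Cd79b, Dntt, Ikzf1, Irf4 and Tcf3.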

How the data were processed

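CTCF ChIP-seq of newborn heart was analysed from 5 peak lists in narrowPeak format (mm10), per the labels. The authors called relaxed lists of 300000 peaks on replicate 1, on replicate 2 and on both together, each against a control not used here, and derived the optimal (44533 peaks) and conservative (43221) lists by IDR, per the text files deposited beside them. No source used here names the read length, the aligner, the caller or the IDR threshold. The signal of each peak is the deposited value. The deposited q-value column is named a score, since it falls below 0, and was not used, nor was the peak score. Depth is unknown.

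Summits are peak start plus offset, written from 1. Records of GENCODE M21 on assembled chromosomes gave members, 5′ ends and other genes. Proximal and distal segments are those up to and beyond the median rank of distance from the nearest J segment. The CTCF core consensus (14 bases, known from earlier work on CTCF) was searched on both strands of GRCm38. A core belongs to a summit when it lies within 50 bp of it, single best, with at most 2 mismatches. For counts over cores, a summit within 50 bp of the core's centre counts. A replicate's signal at a summit is its strongest relaxed peak within 100 bp. A replicate's own list holds as many of its strongest peaks as the optimal list. Unique sequence is the share of 32-base runs found once, on either strand, a length set without knowing that of the reads. Named segments are, at Igh and Igk, those nearest to and farthest from J, the 5 nearest to a summit by either end, the 5 nearest to the strongest summits, and all of Igl. Other named segments, and the comparisons of identical cores, were chosen after values were seen. Members and lists were chosen with earlier results of these data known. No test was run, since there is 1 group. The search functions were tested on simulated data. Alternatives were leaving out a replicate, the conservative list, other windows, ends, members, splits, signal limits, flanks and core searches. Python 3.11.15, numpy 2.4.6, pandas 2.3.3 and numba 0.67.0 were used.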

Additional observations from a re-analysis of the deposited data

How the results depend on the processing

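Of 157 values of 21 results recomputed under alternatives, 108 stayed within 1.5 times the reported share or count, or within 1 SD of the reported distance. That SD is of the 2 distances with a replicate left out, so for these the limit rests on the values it judges. By it the median Igl distance, 153.5 kb, counted as unmoved at 238.5 kb without replicate 1 and 94.9 kb without replicate 2. No paired analysis was possible because there is only 1 group. The distal Igh segments kept 0% with a peak under every alternative except the window of 50 kb, and proximal segments had the higher share at Igh and Igk under every alternative except that, with only peaks at or above the median signal, Igh had 0% in both. Depth is unknown, and the IDR lists and windows set how many weak peaks count; the cause of each move below was not tested beyond that.

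Leaving out a replicate gave 2.65 to 5.31% of Igh segments with a peak, 5.36 to 10.7% of proximal Igh segments, 0 to 33.3% of Igl segments and 1 to 3 summits at Igl. It gave median distances of 149.2 to 166.3 kb for all segments, 344.0 to 385.1 kb for Igh, 52.4 to 109.3 kb for proximal and 641.2 to 684.4 kb for distal Igh segments, 100.8 to 108.4 kb for Igk, 83.7 kb in each case for proximal and 142.0 to 204.0 kb for distal Igk segments. The conservative list gave 0% of Igl segments and 1 summit at Igl. A window of 5 kb gave 2.29% of all segments, 0.980% of Igk, and 1.96% of proximal and 0% of distal Igk segments. A window of 20 kb gave 8.72% of all segments, 6.19% of Igh, 12.5% of proximal Igh, 10.8% of Igk, and 15.7% of proximal and 5.88% of distal Igk segments, where all genes gave 52.7%. A window of 50 kb gave 21.1% of all segments, 15.9% of Igh, with 28.6% of proximal and 3.51% of distal segments, and 26.5% of Igk, with 33.3% and 19.6%, where all genes gave 71.0%. Peaks at or above the median signal gave 0.459% of all segments, 0% of Igh and Igl, 0.980% of Igk, with 1.96% of proximal and 0% of distal segments, and 4, 8 and 0 summits at Igh, Igk and Igl, where all genes gave 23.2%. The outermost splits of rank, nearest against farthest, gave 8.11% of proximal Igh and 2.94% of distal Igk segments, and families Ighv2 and Ighv5 gave 10.5%. Flanks of 0 kb left 3, 8 and 1 summits at Igh, Igk and Igl, and flanks of 50 kb left 5 at Igh and 1 at Igl. With at most 1 mismatch, 100% of the 4 cores of the Igh interval pointed toward J.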
